A study of Mus musculus with 12 samples.

Results

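The genes described here are 9 components of the tight junction that seals the alveolar epithelium, namely the claudins Cldn1, Cldn3, Cldn4, Cldn6, Cldn7 and Cldn18, occludin (Ocln), zonula occludens 1 (Tjp1) and junctional adhesion molecule A (F11r). They are the rows with these gene names among the 34745 genes of the deposited table, and all 9 were found in it. RNA was sequenced from 12 libraries of MLE-12, a mouse line with alveolar type II (AT II) features that was made by driving a viral large T antigen from the surfactant protein C promoter, so all groups share that transgene and a single line. The LPS group received 100 ng/mL lipopolysaccharide in 21% oxygen, the LPS + M2-Exo group received the same with 10 μg/mL M2-Exo, the Hyp group was kept in 85% oxygen without LPS, and the Hyp + M2-Exo group was kept in 85% oxygen with 10 μg/mL M2-Exo, each for 24 h by the sample labels and each with 3 libraries. M2-Exo are exosomes collected from the mouse alveolar macrophage line MH-S after polarisation with IL-4. No library came from untreated cells, so the M2-Exo comparisons set each injury against itself, and the comparisons of the injuries differ in oxygen and in LPS at once, which cannot be told apart.

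Tight junctions are belts of contact near the apex of epithelial cells that limit the passage of water, ions and solutes between the cells. Claudins form the strands and set their permeability, with pore-forming members and sealing members, while occludin and the junctional adhesion molecules lie beside them in the membrane and the ZO proteins hold the strands to the actin cytoskeleton. In the distal lung, Cldn3, Cldn4 and Cldn18 are the claudins known best from the alveolar epithelium, and Cldn18 and Cldn4 are tied there to barrier function and fluid clearance.

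The promoters of 5 members are shown, namely the 4 that were called lower in hyperoxia in the results that follow and Cldn1, which had fewer reads there. Whether these sequences bear on the levels was not tested. The sequences are from RefSeq on GRCm38.p6, are written 5′ to 3′ on the strand of the gene, and hold up to 250 bases before the start of transcription without any base of an annotated exon. Capitals mark the GC box GGGCGG and the E-box CACCTG on either strand. The windows are chr1:171437319-171437534 (+) for F11r, chr7:65371245-65371494 (-) for Tjp1, chr13:100552719-100552968 (-) for Ocln, chr5:134985964-134986213 (+) for Cldn3 and chr16:26371842-26372089 (-) for Cldn1. The Tjp1 window lies inside the annotated span of the gene, in no exon.
F11r: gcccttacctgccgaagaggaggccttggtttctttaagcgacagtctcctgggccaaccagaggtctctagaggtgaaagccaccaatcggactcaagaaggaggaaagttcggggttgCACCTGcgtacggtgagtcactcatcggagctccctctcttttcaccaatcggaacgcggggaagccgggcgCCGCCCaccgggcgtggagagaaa
Tjp1: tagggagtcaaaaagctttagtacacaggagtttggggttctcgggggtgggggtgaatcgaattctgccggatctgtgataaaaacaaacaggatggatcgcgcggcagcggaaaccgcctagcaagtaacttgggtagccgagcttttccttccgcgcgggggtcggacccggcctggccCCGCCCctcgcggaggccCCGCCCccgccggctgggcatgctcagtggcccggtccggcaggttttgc
Ocln: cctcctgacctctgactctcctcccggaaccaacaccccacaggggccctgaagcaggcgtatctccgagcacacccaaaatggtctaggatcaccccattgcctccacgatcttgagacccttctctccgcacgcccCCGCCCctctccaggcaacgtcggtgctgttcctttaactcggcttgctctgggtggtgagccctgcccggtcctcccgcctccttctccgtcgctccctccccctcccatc
Cldn3: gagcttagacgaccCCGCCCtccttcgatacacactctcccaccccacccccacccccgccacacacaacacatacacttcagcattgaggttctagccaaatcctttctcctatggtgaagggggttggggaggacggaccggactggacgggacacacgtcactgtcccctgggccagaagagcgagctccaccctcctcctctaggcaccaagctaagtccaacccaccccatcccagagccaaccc
Cldn1: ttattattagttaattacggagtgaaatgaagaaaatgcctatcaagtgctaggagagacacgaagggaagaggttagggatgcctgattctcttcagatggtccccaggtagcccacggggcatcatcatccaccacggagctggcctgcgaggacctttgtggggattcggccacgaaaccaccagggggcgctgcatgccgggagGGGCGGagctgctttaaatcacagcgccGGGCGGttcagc

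RefSeq lists 12 promoter windows for the 9 members, with a pair each for Ocln, Cldn7 and Cldn18. The GC box was found in 9 of these 12 windows of 250 bases, beside 32.7% of the 32851 windows of all genes, and the E-box in 5 of 12, beside 17.2% of all windows. The sequence TATAAA was found in 0 of the 12, beside 12.4%, and TGANTCA, the AP-1 sequence, in 2 of 12, beside 6.75%. All 5 printed windows hold at least 1 GC box, Tjp1 and Cldn1 hold 2 each, and F11r alone of the 5 holds a printed E-box. These matches describe the letters of the windows and say nothing of what binds there.

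On GRCm38, the table places F11r on the plus strand of chr1:171437535-171464603, Tjp1 on the minus strand of chr7:65296165-65527781, Ocln on the minus strand of chr13:100496507-100552718, Cldn3 on the plus strand of chr5:134986214-134987472 and Cldn1 on the minus strand of chr16:26356642-26371841. Of the other members, Cldn4 lies at chr5:134945119-134946934, Cldn6 at chr17:23679365-23682446, Cldn7 at chr11:69964779-69967885 and Cldn18 at chr9:99689461-99717267. Of all runs of 50 bases in their annotated transcripts, 0.868% of those of F11r occurred in transcripts of other genes and 0% of those of the other members, so few reads of these genes could be shared with copies elsewhere. Cldn3 overlaps the antisense gene Wbscr25, to which at most a mean of 0.083 reads per library was counted, and the genes that overlap Tjp1 had a mean of at most 0.25 reads.

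The markers that name the line were present only in part. Sftpc, surfactant protein C of AT II cells, averaged 22.3 CPM (reads scaled to the library's total after TMM scaling) in LPS and 11.2 CPM in Hyp, and Sftpb was at 1.26 to 1.77 and 4.12 to 5.04 CPM, whereas Sftpa1 and Sftpd were at or near 0. Aqp5, a type I marker, averaged 76.6 CPM in LPS and 85.4 CPM in Hyp. Of the epithelial markers, Krt8 averaged 157 CPM in LPS, but Epcam averaged 0.85 CPM and Krt18 0.145 CPM. Summed AT II markers ranged over 505.5 to 561.5 CPM in LPS and 308.1 to 328.6 CPM in Hyp, and summed type I markers over 415.8 to 462.6 and 264.6 to 352.1 CPM. In Hyp against LPS, 75.8% of all genes tested were called (adjusted p under 0.05) and 37.8% were called lower. Beside those shares, 6 of 8 tested AT II markers were called lower and 2 higher, and 4 of 8 type I markers were called lower and 1 higher. The counts of the marker lists that follow are read against the same shares, and none is called particular to its list. Of the epithelial markers, 4 of 5 tested were called lower and 1, Krt19, higher (median log2 fold change -0.83), and since Krt19 averaged 500 CPM in LPS and 739 CPM in Hyp, the sum of the list was higher in Hyp, at 875.5 to 894.6 CPM against 663.6 to 702.7 CPM. The summed macrophage markers, 11 genes of which 6 of 7 tested were called lower in Hyp and Chil3 and Retnla were at 0, ranged over 354 to 395.6 CPM in LPS and 81.56 to 87.74 CPM in Hyp, and over 276.1 to 315.6 and 63.5 to 96.75 CPM with M2-Exo. Ptprc, the pan-leukocyte marker among them, averaged 50.0 CPM in LPS and 8.78 CPM in Hyp. Summed fibroblast markers (4 of 5 tested called lower) ranged over 815.8 to 842 and 328.5 to 355.7 CPM. Dcn, which averaged 790 CPM in LPS and 332 CPM in Hyp, set this sum, and Col1a2 averaged 0.613 and 0.598 CPM. Of the endothelial markers, 4 of 5 tested were called higher, among them Pecam1 (0.306 and 2.06 CPM), and 1, Tek, lower (23.3 and 3.67 CPM), which set the sum of the list, at 26.07 to 28.9 CPM in LPS and 19.08 to 21.4 CPM in Hyp. Pecam1 had 17 reads in the 3 LPS libraries and 148 in the 3 Hyp libraries. Pecam1 and Kdr (8 reads in LPS and 66 in Hyp) passed the filter only through Hyp. The macrophage marker Marco (209 reads in LPS and 1 in Hyp) passed it only through LPS. Their calls, and the counts of the lists that hold them, are not read as results. The part of these marker genes in the levels of Cldn3, Tjp1, F11r and Ocln between the injuries was not tested.

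Only 4 members were well covered in these cells. Total counts ranged from 16021833 to 19185116 per library in the groups with LPS and from 20231632 to 24074616 in hyperoxia. Of the 9 members, 8 had at least 1 read in some library, and 4 (Cldn3, Ocln, Tjp1 and F11r) passed the filter on low counts in every comparison. Cldn1 passed it in LPS + M2-Exo against LPS and in the fits over all 12 libraries. Cldn4, Cldn6, Cldn7 and Cldn18 passed it in none.

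Per length, F11r was the highest member, with deposited FPKM (reads scaled to the gene's length and the library's total) between 52.6 and 56.4 in the LPS libraries, and Tjp1 followed with FPKM between 38.8 and 41.2. Cldn3 stood at an FPKM of 5.24 to 5.65 and Ocln at 1.79 to 2.29, while Cldn1 stood at 0.144 to 0.231 and Cldn18 at 0.0154 to 0.0612. The order of these 6 did not overlap from 1 gene to the next in LPS. In Hyp the ranges of Cldn3 (FPKM of 1.91 to 2.13) and Ocln (1.60 to 1.64) came closer, and in Hyp + M2-Exo they overlapped, at 1.70 to 1.94 and 1.38 to 1.85. In Hyp, Cldn1, whose highest FPKM was 0.0256, lay below Cldn18, at 0.0305 to 0.06. This rests on 0 to 2 reads of Cldn1 and 5 to 9 of Cldn18 per library, too few to rank the 2 genes. F11r and Tjp1 kept their places at the top in every group, with FPKM means in Hyp of 42.2 ± 0.288 and 24.2 ± 0.871 (SD, n = 3).

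**Figure D1:**
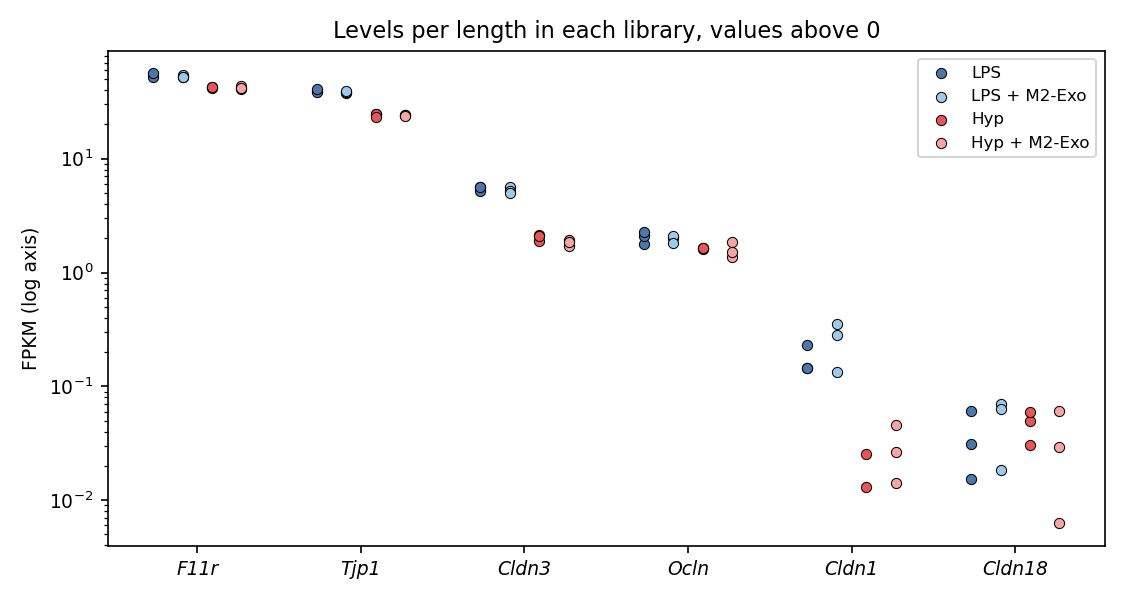
Levels per length of 6 members in each of the 12 libraries as deposited FPKM on a log axis, coloured by group, with values of 0 left out. F11r (highest, 52.6 to 56.4 in LPS) and Tjp1 lie above Cldn3 and Ocln, and Cldn1 and Cldn18 lie below an FPKM of 1.

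The comparison of Hyp with LPS asks how the junction genes stand in the 2 injuries that the study uses as models. All 4 members tested were lower in hyperoxia, and in each of them the groups did not overlap. Cldn3, a sealing claudin of the alveolar epithelium, showed the widest gap of the 4, followed by the scaffold Tjp1, with F11r and Ocln changed less. Called genes, with an adjusted p under 0.05, made up 75.8% of the 13805 genes tested and genes called lower 37.8%, while groups without overlap were seen in 78.8% (39.1% lower), so 4 of 4 stands against a background in which most genes differed. The median log2 fold change of the 4 was -0.64, beside 0.0091 over all genes. None of the 4 reached a log2 fold change of 2 in size. In bulk RNA, fewer cells that express a gene and less RNA per cell cannot be told apart, and since nothing in the labels says that replicates came from separate cultures, the p-values measure the spread between these libraries only.

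Cldn3 stood at 7.31, 6.77 and 7.28 CPM in the LPS libraries and at 2.60, 2.32 and 2.53 CPM in the Hyp libraries. Every Hyp library lay below every LPS library by a wide margin, on 126 to 135 reads per LPS library and 53 to 63 per Hyp library. The log2 fold change was -1.52 (SE 0.11), with an adjusted p of 6e-06 by the quasi-likelihood F test of edgeR with Benjamini-Hochberg adjustment, which was used for every adjusted p here unless another tool is named. Of all genes tested, 12.9% had a larger fold change in either direction.

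Tjp1, which encodes ZO-1 and links strands to actin, stood at 428, 424 and 454 CPM in LPS and at 255, 254 and 238 CPM in Hyp. The log2 fold change was -0.81 (SE 0.042, adjusted p = 8.99e-07). It is the best-counted member, with 5795 to 8425 reads per library in these groups, and the Hyp libraries lay together well below the LPS libraries. In size of change 32.2% of all genes exceeded it.

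F11r encodes JAM-A, an immunoglobulin-like adhesion protein that helps to place the junction. It stood at 206, 195 and 211 CPM in LPS and at 147, 148 and 148 CPM in Hyp. The Hyp libraries were nearly level, with a coefficient of variation of 0.446%, and all 3 lay below the LPS libraries. The log2 fold change was -0.47 (SE 0.037, adjusted p = 8.83e-06), exceeded in size by 53.5% of all genes.

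Ocln, the 4-pass membrane protein occludin, stood at 13.9, 16.2 and 17.9 CPM in LPS and at 11.9, 11.7 and 12.0 CPM in Hyp. The LPS libraries were spread over a range wider than the gap between the groups, and the lowest of them lay just above the Hyp libraries. The log2 fold change was -0.43 (SE 0.10, adjusted p = 0.00475).

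**Figure D2:**
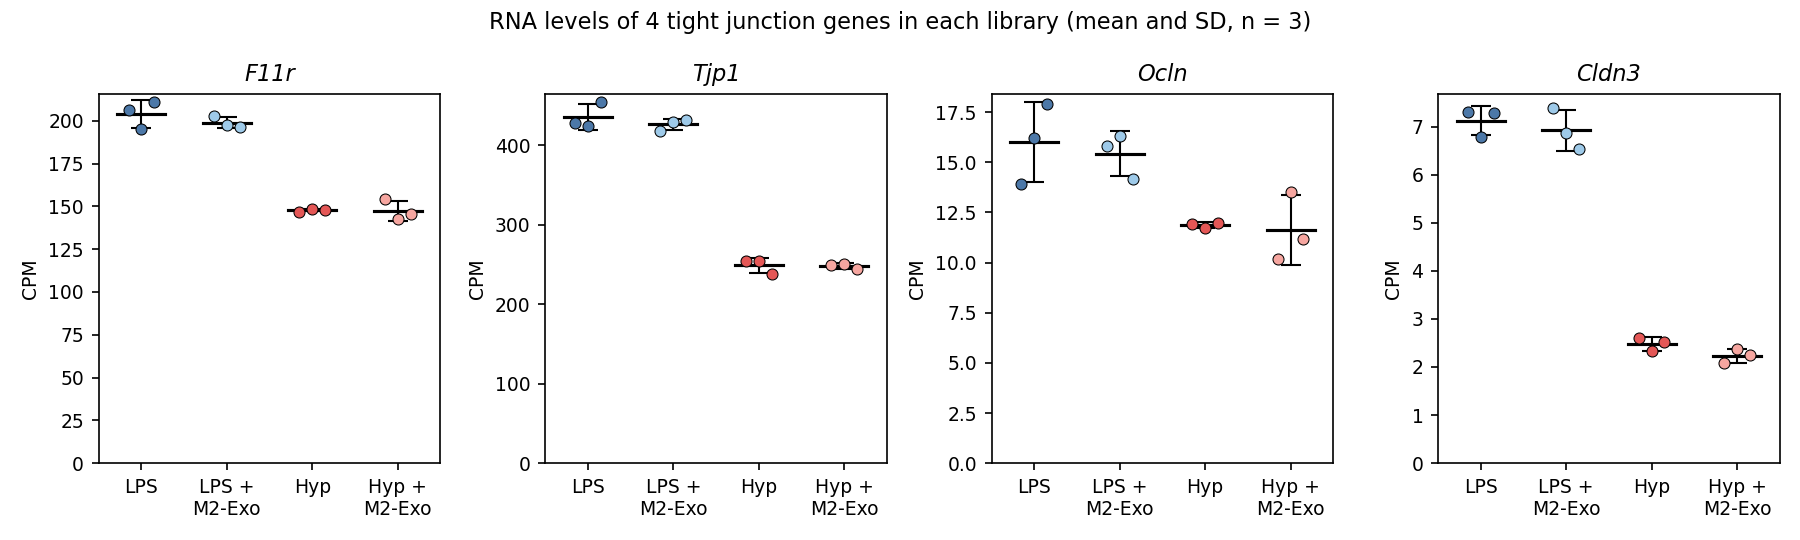
CPM of F11r, Tjp1, Ocln and Cldn3 in each library (points), with the group mean (horizontal bar) and SD (whiskers), n = 3 per group and axes from 0. The hyperoxia groups lie below the LPS groups in all 4 panels, while groups with and without M2-Exo overlap.

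The same comparison in the presence of M2-Exo used 6 other libraries and gave the same order. In LPS + M2-Exo, Cldn3 stood at 7.38, 6.86 and 6.53 CPM, and in Hyp + M2-Exo at 2.08, 2.37 and 2.25 CPM, with a log2 fold change of -1.63 (SE 0.13, adjusted p = 1.11e-05). Tjp1 stood at 418, 429 and 432 CPM against 249, 250 and 244 CPM, with a log2 fold change of -0.78 (SE 0.032, adjusted p = 3.55e-07). Again both pairs of groups were far apart. F11r stood at 203, 197 and 197 CPM against 154, 143 and 146 CPM (log2 fold change -0.43, SE 0.040, adjusted p = 2.33e-05). Ocln stood at 15.8, 16.3 and 14.2 CPM against 10.2, 13.5 and 11.2 CPM (log2 fold change -0.41, SE 0.12, adjusted p = 0.0166). For Ocln the groups nearly touched, with the highest Hyp + M2-Exo library just under the lowest LPS + M2-Exo library. Here too all 4 members tested were called lower without overlap, beside 73.7% of 13660 genes called, 36.5% called lower, 77% without overlap and 38% lower without overlap. The call of Ocln rested on single libraries, since without LPS + M2-Exo replicate 2 its log2 fold change was -0.37 (adjusted p = 0.0502) and without Hyp + M2-Exo replicate 1 it was -0.32 (adjusted p = 0.0524).

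The remaining claudins were counted in few reads. Cldn1, a sealing claudin of many epithelia, had 14, 9 and 9 reads in LPS, 19, 7 and 17 in LPS + M2-Exo, 1, 0 and 2 in Hyp, and 2, 1 and 3 in Hyp + M2-Exo. All 6 libraries with LPS lay above all 6 hyperoxia libraries. Summed over 3 libraries, 3 reads in Hyp against 32 in LPS gave a ratio of 0.0721 per scaled library (95% interval 0.0141 to 0.231), and 6 in Hyp + M2-Exo against 43 in LPS + M2-Exo gave 0.103 (0.0357 to 0.242), with intervals that cover counting error only. Cldn1 was not tested in these comparisons under the filter. Without the filter its adjusted p was 0.00127 for Hyp against LPS and 0.000696 with M2-Exo. These 2 tests rest on 0 to 3 reads per hyperoxia library and add no support to the counts. In the fits over 12 libraries Cldn1 passed the filter only through the groups with LPS, so the test of any difference among the 4 groups is not given for it.

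Cldn18, the claudin most typical of the lung epithelium, had 4, 2 and 8 reads in LPS, 8, 2 and 8 in LPS + M2-Exo, 8, 9 and 5 in Hyp, and 1, 9 and 4 in Hyp + M2-Exo. The 4 groups overlapped throughout. The ratio of Hyp to LPS was 1.21, with a 95% interval for counting of 0.591 to 2.55, so a change smaller than that interval was not detectable at this depth. Cldn4, a sealing claudin known to rise in injured lung epithelium, had 0, 0 and 0 reads in LPS, 1, 0 and 0 in LPS + M2-Exo, 2, 1 and 3 in Hyp, and 4, 3 and 0 in Hyp + M2-Exo. Cldn6, a claudin of embryonic epithelia, had no read in the 6 libraries with LPS, then 2, 1 and 4 in Hyp and 0, 1 and 2 in Hyp + M2-Exo. These 2 genes stayed at or near the 3 counts that a count of 0 leaves room for, and no fold is given for Hyp against LPS. Cldn7, which is common in simple epithelia, had 0 reads in all 12 libraries, which allows up to 0.12 CPM in the deepest library and 0.194 CPM in the shallowest.

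**Figure D3:**
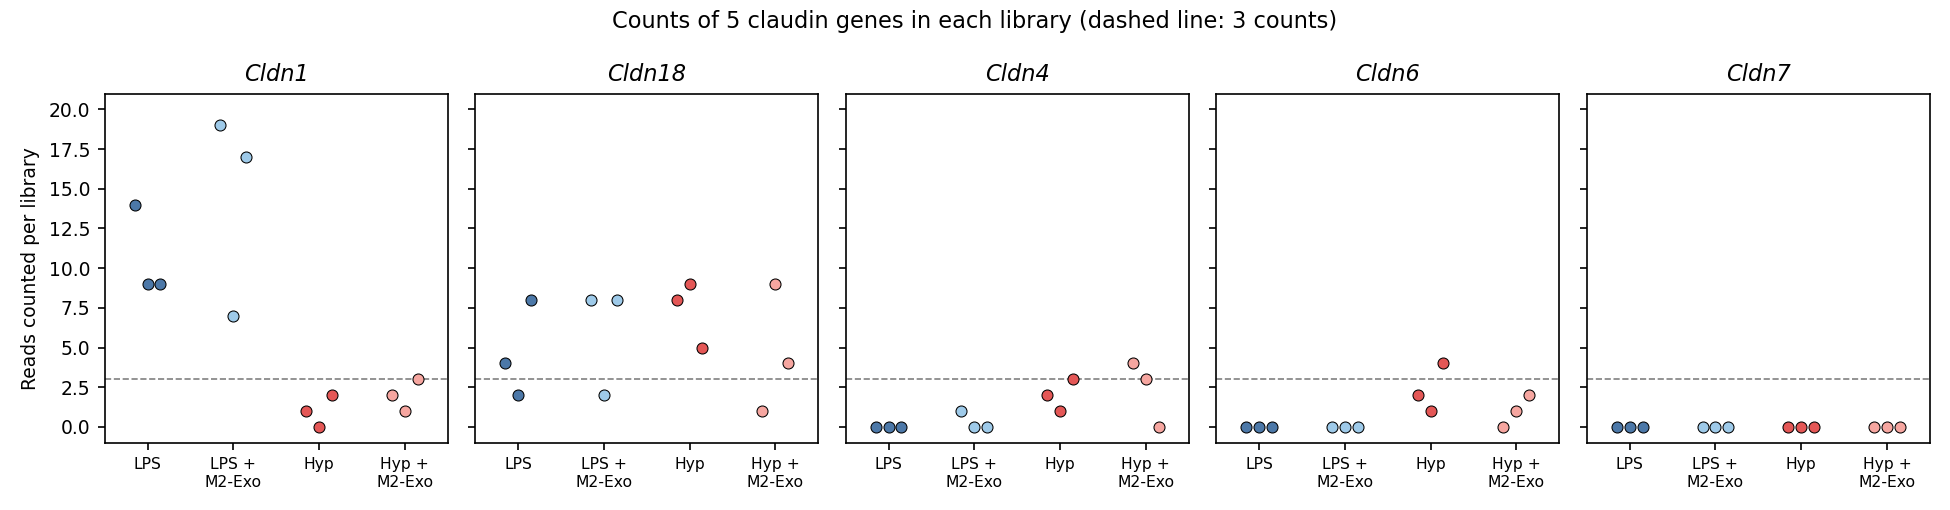
Reads counted for Cldn1, Cldn18, Cldn4, Cldn6 and Cldn7 in each library (points), by group, with a dashed line at 3 counts. Cldn1 lies at 7 to 19 reads with LPS and at 0 to 3 in hyperoxia, Cldn18 overlaps between groups, and Cldn7 is at 0 in all 12 libraries.

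With M2-Exo, no member that could be tested changed past the threshold in either injury. Cldn4, Cldn6, Cldn7 and Cldn18 were tested in neither, and Cldn1 only with LPS. In LPS + M2-Exo against LPS, 0 of the 5 members tested were called by edgeR, 0 of the 4 with an adjusted p in DESeq2 (all but Cldn1) were called there, and 0 of the 5 had an unadjusted p under 0.05, beside 0.187% of 13353 genes called and 11.1% with an unadjusted p under 0.05. The groups overlapped in all 5, beside 17.2% of genes without overlap. The log2 fold change of Tjp1 was -0.03 (95% interval -0.11 to 0.05, adjusted p = 0.814) and that of F11r was -0.04 (-0.13 to 0.05, adjusted p = 0.773), so for the well-counted members the intervals were narrow. Ocln was at -0.05 (-0.31 to 0.20, adjusted p = 0.899) and Cldn3 at -0.04 (-0.28 to 0.20, adjusted p = 0.925). Cldn1 was at 0.58 (-0.36 to 1.52, adjusted p = 0.66), a wide interval that leaves both directions possible.

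In Hyp + M2-Exo against Hyp, 0 of 4 members were called by edgeR or DESeq2 and 0 had an unadjusted p under 0.05, beside 0.101% of 13815 genes called and 8.48% with an unadjusted p under 0.05. The groups again overlapped in every member tested, beside 16% of genes without overlap. The log2 fold changes were -0.16 for Cldn3 (95% interval -0.51 to 0.19, adjusted p = 0.761), -0.04 for Ocln (-0.30 to 0.22, adjusted p = 0.931), -0.01 for Tjp1 (-0.10 to 0.07, adjusted p = 0.923) and -0.01 for F11r (-0.09 to 0.08, adjusted p = 0.961). For Cldn3, the member with the fewest reads of the 4, the interval was the widest. Each injury's M2-Exo comparison shares its libraries with the comparisons between the injuries, so these values are set side by side and not related to each other.

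Whether M2-Exo acted differently in the 2 injuries was tested as an interaction over all 12 libraries. It was called by edgeR in none of Cldn3, Ocln, Tjp1 and F11r, beside 0.0352% of 14187 genes. None of them had an unadjusted p under 0.05. No interaction is given for Cldn1, which passed the filter only through the groups with LPS. The interaction was -0.11 on the log2 scale for Cldn3 (95% interval -0.45 to 0.22), 0.02 for Ocln (-0.33 to 0.38), 0.02 for Tjp1 (-0.09 to 0.13) and 0.04 for F11r (-0.08 to 0.15). Any difference among the 4 groups was called in Cldn3, Ocln, Tjp1 and F11r, beside 77.8% of genes, with adjusted p-values from 2.51e-10 for Tjp1 to 0.00348 for Ocln.

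**Figure D4:**
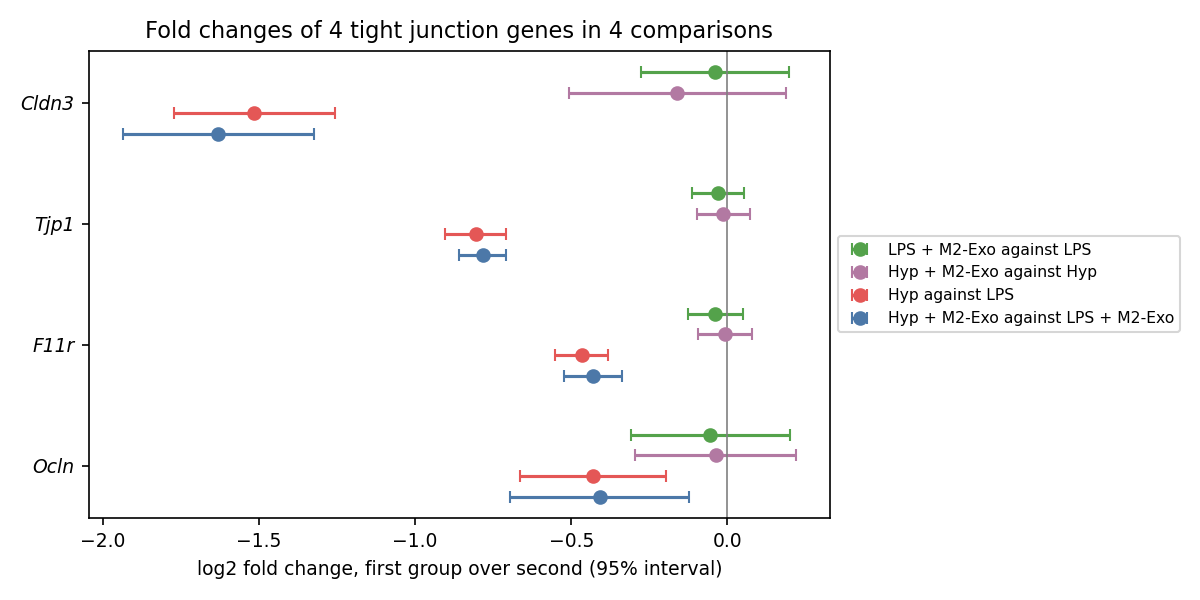
Log2 fold changes of Cldn3, Tjp1, F11r and Ocln in the 4 comparisons, with 95% intervals (bars) and a line at 0. The M2-Exo comparisons lie across 0 and the comparisons of hyperoxia with LPS lie below it, from -1.63 for Cldn3 to -0.41 for Ocln.

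The members sit among other junction genes that also differed between the injuries. Of 87 further junction genes listed, 86 were in the table and 8, all claudins, had no read in any library. In Hyp against LPS, 60 of 64 tested were called, 41 lower and 19 higher, beside 75.8% of all genes called and 37.8% called lower, with a median log2 fold change of -0.42 beside 0.0091 over all genes. With M2-Exo in both groups, 51 of 65 were called, 34 lower and 17 higher (median -0.37), beside 73.7% and 36.5%. Most genes differed between the injuries, so the counts of these lists are read against those shares and nothing is called particular to a list. Some of the listed genes also passed the filter only through the group where they are high. In the M2-Exo comparisons 0 of 63 were called by edgeR in LPS and 0 of 63 in Hyp, with 6 at an unadjusted p under 0.05 in each.

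Among the scaffold and polarity genes, which bind claudins and ZO proteins at the inner face, 17 of 25 were called lower and 6 higher in Hyp against LPS, where 37.8% of all genes were called lower. Cingulin (Cgn), which binds ZO-1, changed by -0.62 on the log2 scale (SE 0.080), close in size to the median of the members. Magi3 was lower still, at -1.82 (SE 0.037), though it overlaps 12 other genes, 11 on its strand, with at most a mean of 724 reads per library. The multi-PDZ scaffold Mpdz was at -0.64 (SE 0.034) and the polarity GTPase Cdc42 at -0.67 (SE 0.034). These 4 were also called lower with M2-Exo, with log2 fold changes from -1.86 for Magi3 to -0.53 for Cgn.

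The other membrane proteins went both ways, with 4 of 9 called higher and 4 lower, beside 75.8% of all genes called. Lsr and Ildr2, angulins that mark the contact points of 3 cells, were higher in Hyp, at 1.01 (SE 0.052) and 0.75 (SE 0.033) on the log2 scale. The adhesion receptor Cxadr was lower, at -0.56 (SE 0.041). Marveld2, tricellulin, a relative of occludin, was at -0.37 (SE 0.13, adjusted p = 0.036) without M2-Exo and at 0.04 (SE 0.14, adjusted p = 0.823) with it. The interaction was called in 0 of the 10 other membrane proteins tested, Marveld2 among them, beside 0.0352% of all genes. The 2 values are therefore not read as an effect of M2-Exo.

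Of the other 17 claudins in the table, 3 could be tested, and 2 of these were called higher in Hyp. Beside them, 5249 of the 13805 genes tested were called higher, and 75.8% were called in either direction. Their sign was opposite to that of Cldn3. These genes are named after their values were seen. Cldn12 stood at 34.9 ± 9.27 CPM in LPS and 67.3 ± 14.0 CPM in Hyp (SD, n = 3), with a log2 fold change of 0.95 (adjusted p = 0.0040) and of 1.60 between the groups with M2-Exo. Cldn23 changed by 0.75 (adjusted p = 0.0302) and by 1.65 with M2-Exo. It had few reads, with 16 to 20 per library in LPS and 28 to 45 in Hyp. With M2-Exo it had 8 to 12 in LPS + M2-Exo and 38 to 42 in Hyp + M2-Exo. The interaction was called in 0 of these 3 claudins, beside 0.0352% of all genes, so the larger values with M2-Exo are not read as its effect. Per length, the mean FPKM of Cldn12 was 2.29 in LPS, under the 5.49 of Cldn3, and 4.70 in Hyp, over the 2.04 of Cldn3.

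The adherens junction lies below the tight junction and is built from cadherin, nectins and catenins. All 9 of its listed genes were called lower in Hyp against LPS, beside 37.8% of all genes, and 8 of 9 between the groups with M2-Exo, beside 36.5%. E-cadherin (Cdh1) was at -2.25 on the log2 scale (SE 0.095), the nectin Pvrl3 at -1.23 (SE 0.042), p120 catenin (Ctnnd1) at -0.87 (SE 0.029) and alpha catenin (Ctnna1) at -0.48 (SE 0.026). Cdh1 fell further than Cldn3, the most changed of the 4 members tested. Among the signalling and transcription genes, 11 of 18 were called lower and 7 higher, so all 18 were called, beside 75.8% of all genes. Some of the 18, such as Grhl2, passed the filter only through the group where they are high, so this count is not read as a result. Nkx2-1, a lung epithelial transcription factor that overlaps an antisense gene of few reads, was at -2.13 (SE 0.045) and the RhoA activator Arhgef2 at -0.84 (SE 0.029), while Grhl2, a transcription factor of epithelial junction genes, had 7 reads in the 3 LPS libraries and 239 in the 3 Hyp libraries.

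**Figure D5:**
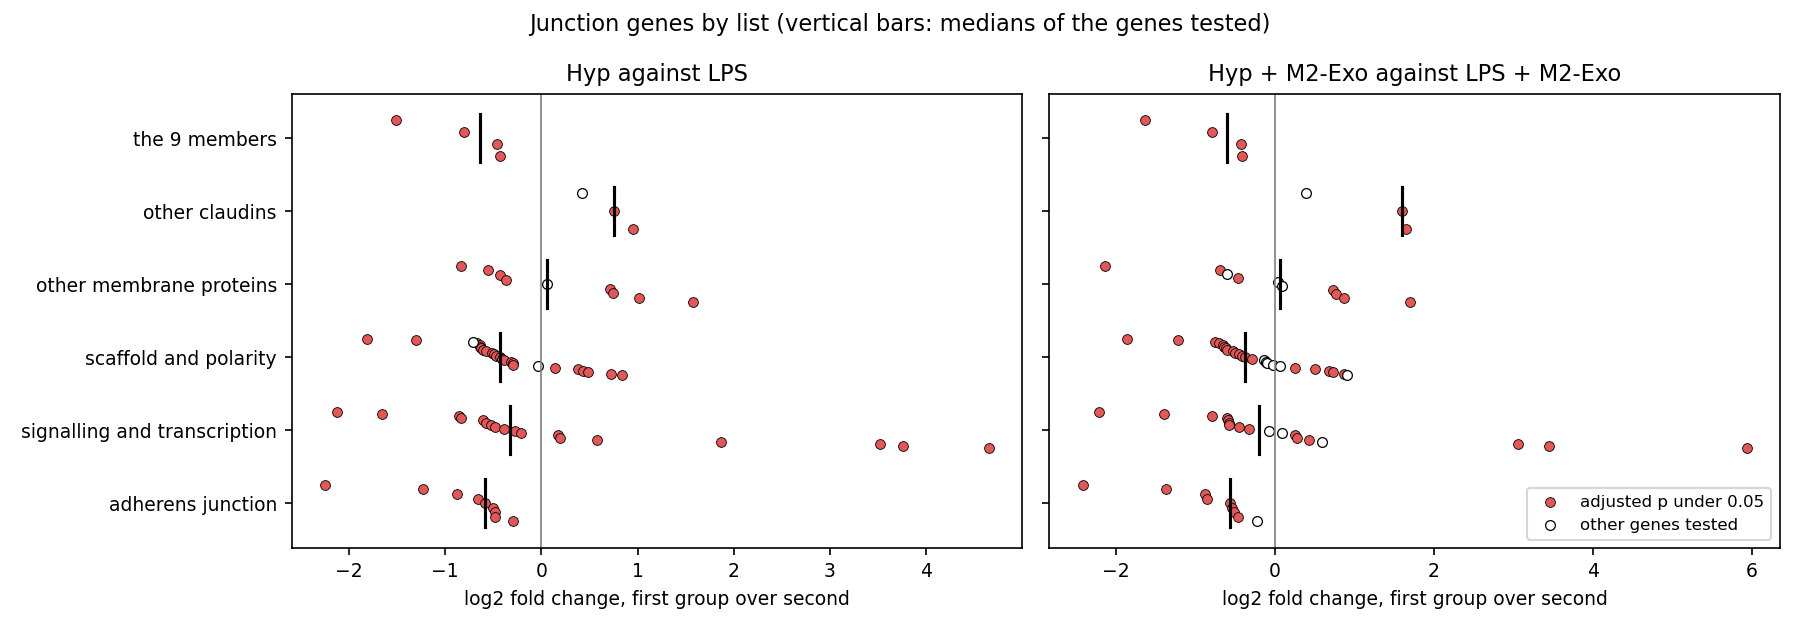
Log2 fold changes of all junction genes tested, by list, for Hyp against LPS (left) and Hyp + M2-Exo against LPS + M2-Exo (right), with genes at an adjusted p under 0.05 filled in red and the median of each list as a vertical bar. The members (medians -0.64 and -0.61) and the adherens junction genes lie to the left of 0, and the other claudins to the right.

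Over the 12 libraries, the genes whose log2 CPM moved most like a member's were found by the root mean square distance of centred values, among 11602 genes with a mean of at least 50 reads. For Tjp1 they were Utrn, Pbrm1 and Asxl1, at distances of 0.0345, 0.0361 and 0.0367, beside a median of 0.464 over all genes. For F11r they were Pygb, Rnaseh2a and Bicd2, at 0.0334 to 0.0336 (median 0.347), and for Cldn3 they were Fbxl20, Ksr1 and Nhsl1, at 0.0671 to 0.0755 (median 0.817). None of these 9 is a listed junction gene, which is not read as a result. Each was lower in Hyp than in LPS in mean log2 CPM, as in Utrn (8.35 in LPS and 7.51 in Hyp) and Fbxl20 (7.30 and 5.74). The choice by distance to members that were lower in Hyp fixed this direction in advance.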

How the data were processed

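Poly(A) RNA of 12 MLE-12 libraries, 3 in each of 4 groups taken from the sample labels, was sequenced by the authors, who name HISAT2 2.0.4 for mapping. The submitters' processing notes also name StringTie 1.3.0, edgeR and GRCm38, and the program that counted reads is not given in the sources used here. The labels and the methods differ on the RNA extraction kit. The authors deposited raw read counts for each gene together with FPKM, which followed from the counts, the library totals and a gene length to within a relative 0.000733. Of the per-library columns, 0 were left unused. The reads were not analysed here, so a read split or dropped by the counting cannot be seen.

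The 4 pairs of groups were tested on the counts with edgeR 4.0.16 in R 4.3.3, after filterByExpr (minimum count 10) and TMM scaling, by the quasi-likelihood F test on the 6 libraries of a comparison, with Benjamini-Hochberg adjustment over all genes tested and a threshold of 0.05. The interaction and the test of any difference among groups used all 12 libraries. Standard errors and 95% intervals were derived from the F statistic. Ratios of summed reads have exact binomial 95% intervals, and a count of 0 leaves room for 3 counts. The test was checked on simulated data. The members and the gene lists were chosen with earlier results of these data known. All 9 members were named in each comparison, as were the 12 listed junction genes of smallest adjusted p among the 61 that passed, 6 fixed partners, the leading markers, and the 3 nearest genes of the 3 members with the smallest p across groups. A gene that this rule names is not reported here. Alternatives used limma 3.58.1 and DESeq2 1.42.0. Between 16021833 and 24074616 counts per library set the precision, and ratios of summed reads are given with counting intervals.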

Additional observations from a re-analysis of the deposited data

How the results depend on the processing

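For 31 results, 526 alternatives were computed, and 510 kept the direction of a called value and its side of the threshold, or a count within 1.5 times. The lower levels of Cldn3, Tjp1 and F11r in hyperoxia held under all of them. The call of Ocln between the groups with M2-Exo was lost with limma on log2(FPKM + 1) (-0.21, adjusted p = 0.0531), with a pseudocount of 0.1 (adjusted p = 0.0569) and without a filter (adjusted p = 0.0989), besides the 2 libraries named with it. The cause was not tested. Members called in Hyp against LPS rose from 4 to 7 with limma without a filter. Over all genes 10465 were called there, and 8720 to 11016 under the alternatives that kept all libraries. The added members were among Cldn1, Cldn4, Cldn6 and Cldn18, which have few reads, and Cldn4 and Cldn6 had none in LPS. The larger count is therefore not read as more members lower in hyperoxia. Over all genes, calls in LPS + M2-Exo against LPS numbered 25, and 101 by the exact test of edgeR, 125 by DESeq2, 12 with all 12 libraries fitted and 21 to 39 with a library left out (39 without LPS replicate 1). In Hyp + M2-Exo against Hyp they numbered 14, and 28, 37 and 2 in the same order, 7 with limma on log2(FPKM + 1) without a filter, and 12 to 21 with a library left out. With library size alone in place of TMM, the median over all genes moved from 0.0091 to 0.0987 in Hyp against LPS.

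The labels do not say whether the replicate numbers pair the libraries. Same-numbered libraries showed no strong shared deviation, with correlations of -0.0151 to 0.0631, which cannot settle whether they were paired. With the replicate number as a block, calls numbered 6 in LPS + M2-Exo against LPS and 8 in Hyp + M2-Exo against Hyp, and no call of a member changed. Depth limits Cldn4, Cldn6, Cldn7 and Cldn18 to counting statements. Between the injuries it limits Cldn1 to counting statements and a test without the filter.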
